A study of Zea mays with 10 samples.

Results

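The wild-type B73 endosperm transcriptome was described from 3 RNA libraries, which made up the wild-type RNA group among the 10 libraries of a maize series. The members were all 28580 gene IDs of the deposited expression table, read in the 3 wild-type columns and in no other, so every ID of the table belonged to the set. The series set B73 carrying a mutant opaque-2 gene against B73 itself, by RNA sequencing and by chromatin immunoprecipitation with an antibody against the O2 protein. The 3 mutant RNA libraries and the 4 immunoprecipitation libraries were not used here. B73 is the inbred line whose genome serves as the maize reference, and it carried the wild-type opaque-2 gene. Kernels came from self-pollinated greenhouse plants at 15 days after pollination (DAP), endosperms were dissected from them, and polyadenylated RNA was sequenced. Nothing in the labels says that the numbered replicates were taken from separate plants or ears, so the spread between the libraries may be technical.

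The cereal endosperm feeds the germinating embryo. In its starchy cells, maize makes zeins, the prolamins of this species, which collect in protein bodies of the endoplasmic reticulum, and converts imported sucrose to starch. Alpha zeins form the bulk of the storage protein and are encoded by families of near-identical gene copies, while beta, gamma and delta zeins are encoded by few genes each. The transfer cells at the kernel base, the aleurone at the surface and the cells around the embryo make up the other endosperm tissues.

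Total reads were 56876192, 56867400 and 52906484 in replicates 1, 2 and 3. Uniquely mapped reads made up 60.1%, 65.4% and 54.1% of them, and multiply mapped reads 32.5%, 26.9% and 38.6%. Expression was given as RPKM, reads per kilobase of gene length scaled to library size, and the columns did not share one total. Summed RPKM was 1318538 in replicate 1, 696998 in replicate 2 and 2588142 in replicate 3, a 3.71-fold range. The medians were nevertheless alike at 1.58, 1.56 and 1.60 RPKM, and the sums over IDs with a mean under 1000 RPKM were 148467, 176331 and 159529. Replicate 3 therefore stood highest and replicate 2 lowest in summed RPKM, in the same order as their multiply mapped shares; the part of multiply mapped reads in the sums was not tested.

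The named genes of highest level were those of the starchy endosperm, the main tissue of the part sampled. Of the 28 zein IDs that could be named, 24 had a mean of 1000 RPKM or more, and the starch genes wx1 and sh1 also passed that level. The 3 IDs matched by the list of green and maternal tissue were low, summing to 3.92, 4.40 and 3.69 RPKM in replicates 1 to 3. PSBQ, a photosystem II protein, had 2.70, 3.71 and 2.51 RPKM and lhcb4, a light-harvesting protein, 0.27, 0.06 and 0.20 RPKM. With me3 these were the only members matched, so maternal tissue that is not green was not assessed. RNA of other kernel cell types was present at low level and differed between the libraries. Basal transfer layer markers summed to 188, 78.8 and 4.87 RPKM in replicates 1, 2 and 3. Embryo and scutellum markers summed to 49.9, 131 and 91.5 RPKM, and embryo-surrounding region markers to 0.677, 13.8 and 0.571 RPKM. In such bulk tissue, fewer cells of a type and less RNA per cell cannot be told apart.

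The ID of highest mean level was GRMZM2G518465, which the reference gene table did not pair with a gene. It had 112661, 43704 and 245513 RPKM in replicates 1, 2 and 3, and on average 8.10% ± 1.65 of the summed RPKM (SD, n = 3). Unpaired IDs took ranks 1 to 4, and 7 of the top 10 and 13 of the top 25 ranks. The highest ID with a name was z1A1_7 (GRMZM2G353268) at rank 5, a 19-kDa alpha zein gene with 98184, 38114 and 216738 RPKM. Next among the named IDs were z1A1_5 (GRMZM2G053120) at rank 6 and z1A1_6 (GRMZM2G353272) at rank 8, from the same subfamily. All 25 top IDs had their lowest level in replicate 2, their middle level in replicate 1 and their highest in replicate 3. On the deposited scale, the 10 highest IDs were the same set in every library, as were 21 of the top 25, 81 of the top 100 and 753 of the top 1000.

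**Figure D1:**
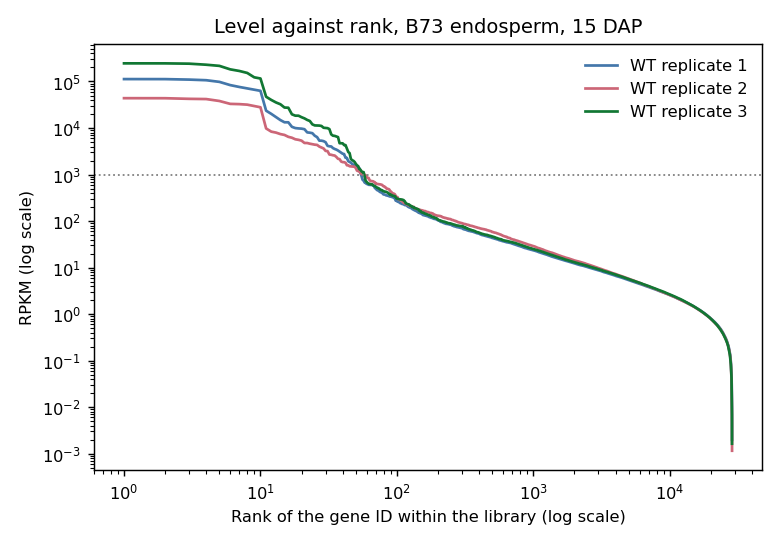
RPKM of each gene ID (vertical axis, log scale) against its rank within its library (horizontal axis, log scale), one line per wild-type replicate; IDs at 0 are not drawn and the dotted line marks 1000 RPKM. The 3 lines lie apart above 1000 RPKM, with replicate 3 highest and replicate 2 lowest, and close together below it.

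Several abundant IDs moved in lock step between the libraries. Relative to z1A1_7, the level of 10 of the other 24 top IDs varied by under 10% across the 3 libraries. The level of z1A1_7 itself varied 5.69-fold on the deposited scale and 1.53-fold after scaling all libraries to an equal sum. GRMZM2G514469, unpaired and at rank 7, stood at 0.777 of the z1A1_7 level in all 3. Among the 236 IDs with a mean of 100 RPKM or more, 10 pairs kept one ratio in the 3 libraries to within 0.01%, and 6 of these pairs held a zein. In 9 pairs a paired ID went with an unpaired one, as gz27, the 27-kDa gamma zein gene, did with GRMZM2G438538. Outside the zeins, hsp18a, which encodes a small heat shock protein, kept one ratio with GRMZM2G404274. The second IDs of the 10 pairs held 7.78% ± 1.34 of the summed RPKM (SD, n = 3). How reads were shared among near-identical or overlapping gene models was not stated in the labels or files, so levels of single zein copies are uncertain and the number of separate genes at the top is not known.

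Most of the summed RPKM lay in a handful of IDs. The top 10 held 68.2%, 52.4% and 74.2% of it in replicates 1, 2 and 3, a mean of 64.9% ± 11.3 (SD, n = 3). The top 100 held 90.2%, 78.6% and 94.7%, and the top 1000 held 94.1%, 87.7% and 96.8%. On the mean of the shares, 7 IDs sufficed for 0.5 of the sum, with 7, 10 and 6 in the single libraries. To reach 0.9 of the sum took 89, 1657 and 31 IDs in replicates 1, 2 and 3. Replicate 2 was the least concentrated library at every one of these steps and replicate 3 the most.

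IDs with a mean of 1000 RPKM or more numbered 55 and held 85.8% ± 9.91 of the summed RPKM (SD, n = 3). The 26 unpaired IDs among them held 55.2% ± 7.15, the 24 zein IDs 29.9% ± 3.22 and the 5 other paired IDs 0.654% ± 0.452. Of the 55, 51 reached 1000 RPKM in every library. The lowest IDs inside the limit were GRMZM2G046532, with a mean of 1132 RPKM, and sh1, with 1089 RPKM. The highest IDs outside it were hag, with 848 RPKM, and GRMZM2G001327, with 764 RPKM.

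Without those 55 IDs the libraries were alike in their concentration. The top 10 of the remaining 28525 IDs held 4.18%, 4.69% and 4.59% of the remaining sum in replicates 1 to 3. The top 100 held 20.4%, 22.2% and 20.9%, a mean of 21.2% ± 0.97 (SD, n = 3), and the top 1000 held 49.95% ± 2.24. Now 1004 IDs were needed for 0.5 of the sum, with 1106, 812 and 998 in the single libraries, and 11320 for 0.9 of it. From the top 10 on, replicate 2 was here the most concentrated library, the reverse of its place among all IDs. At the top 5 replicate 2 held least, with 2.236% against 2.240% in replicate 1 and 2.731% in replicate 3. Taking out only the 28 named zeins did not bring the shares of the libraries together, and its effect on concentration depended on the step. The top 10 of the rest held 72.5% ± 14.4 (SD, n = 3), against 64.9% ± 11.3 with all IDs. The top 100 held less than before, 83.7% ± 10.4 against 87.8% ± 8.31. On the mean of the shares, 968 IDs were needed for 0.9 of the sum, against 275 with all IDs.

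**Figure D2:**
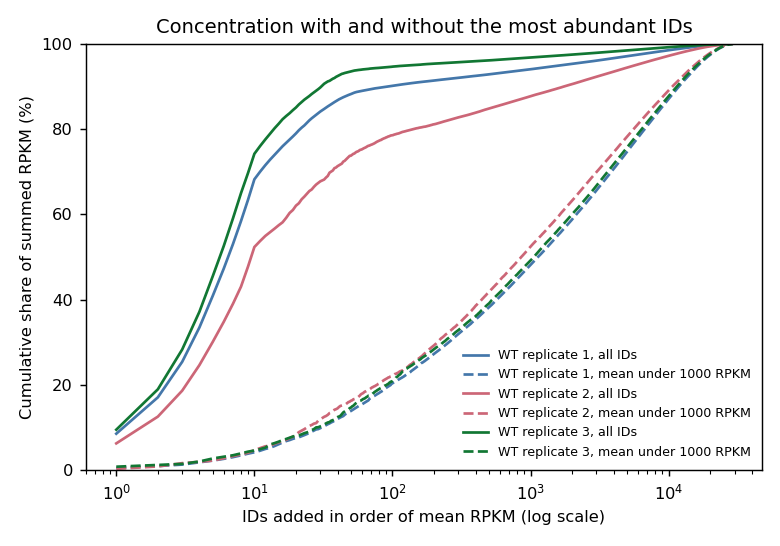
Cumulative share of the summed RPKM (vertical axis, percent) as IDs are added in order of mean RPKM (horizontal axis, log scale), for all IDs (solid) and for IDs with a mean under 1000 RPKM (dashed), one colour per wild-type replicate. The solid lines spread between 52.4% and 74.2% at 10 IDs, whereas the dashed lines run close together and reach 20.4% to 22.2% at 100 IDs.

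By mean level, the largest class was 1 to under 10 RPKM with 15703 IDs, or 54.9% of the table, and it held 4.30% ± 2.72 of the summed RPKM (SD, n = 3). The next class down, 0.1 to under 1 RPKM, had 9558 IDs, and 547 IDs lay under 0.1 RPKM. Above these came 2536 IDs of 10 to under 100 RPKM with 5.58% ± 4.09 of the sum and 181 IDs of 100 to under 1000 RPKM with 3.92% ± 2.84. The 34 IDs of 1000 to under 10000 RPKM held 9.70% ± 2.11, and the 21 IDs of 10000 RPKM or more held 76.1% ± 12.02. The class of lowest level was thus small and the class of highest level smaller still, yet the highest class held most of the sum in all 3 libraries. No ID was at 0 in every library, 34 were at 0 in exactly 1 library and 4 in 2, and the lowest mean was 0.0014 RPKM. No label or header states the filter that formed the table. At 1 RPKM or more stood 18281, 18081 and 18151 IDs in replicates 1, 2 and 3, and 16300 IDs did so in every library, whereas 8533 IDs were under 1 RPKM in every library.

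**Figure D3:**
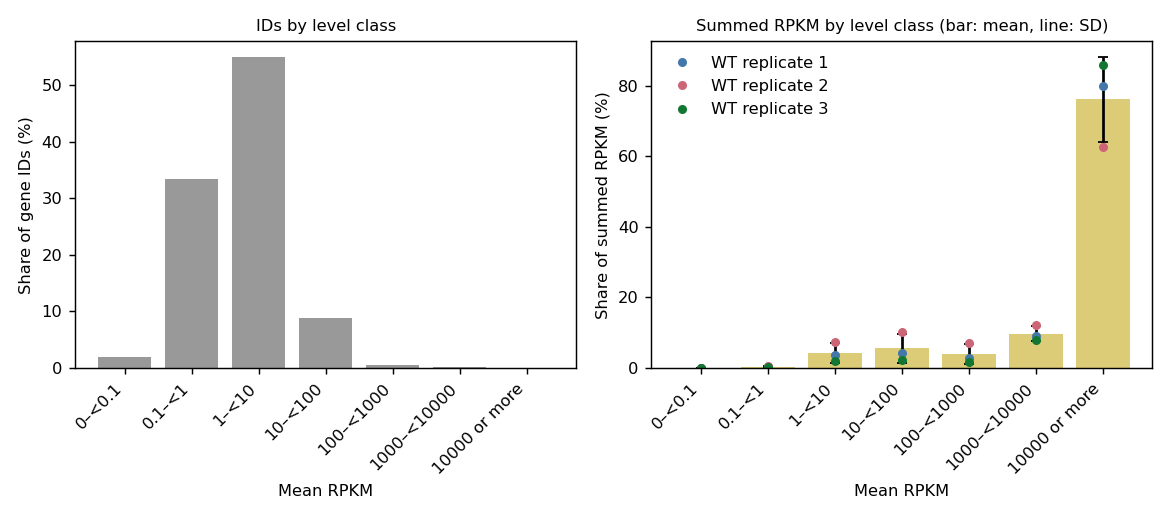
Left, share of the 28580 gene IDs (percent) in each class of mean RPKM; right, share of the summed RPKM (percent) in the same classes, with bars for the mean, lines for the SD and points for the 3 wild-type replicates. The class of 1 to under 10 RPKM holds 54.9% of the IDs and 4.30% of the sum, and the class of 10000 RPKM or more holds 76.1% of the sum.

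The spread between the libraries was wider in the higher classes. The pooled SD of log2(RPKM + 0.1), the root of the mean variance between the 3 libraries, was 0.45 for IDs of 1 to under 10 RPKM, 0.59 for 10 to under 100, 0.74 for 100 to under 1000, 0.82 for 1000 to under 10000 and 1.12 for 10000 or more. The pseudocount of 0.1 holds down this SD in the lowest class, where it was 0.18. The median coefficient of variation, which has no pseudocount, was 23.4% under 0.1 RPKM, 17.0% at 1 to under 10 RPKM and 75.3% at 10000 RPKM or more. The median ratio of the highest to the lowest library was 1.42 over all IDs and 5.47 for the highest class. Over all 55 IDs of 1000 RPKM or more the pooled SD was 0.94, against 0.48 for IDs of 1 to under 1000 RPKM, and it was 0.63 without replicate 2. This order of the levels turned after scaling all libraries to an equal sum, which gave 0.56 at 1000 RPKM or more and 1.03 at 1 to under 1000 RPKM. There the IDs were placed anew by their scaled means, so the sets are not the same.

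Which library was highest also changed with level. At 10000 RPKM or more, all 21 IDs were lowest in replicate 2 and highest in replicate 3. In the class of 100 to under 1000 RPKM the commonest order was the opposite one, with replicate 3 lowest and replicate 2 highest in 46.4% of the IDs. Replicate 2 was highest in 59.1% of that class and in 57.6% of the IDs of 10 to under 100 RPKM. Across genes, the rank correlation over all 28580 IDs was 0.948 for replicates 1 and 2, 0.948 for replicates 1 and 3, and 0.919 for replicates 2 and 3. Over the 236 IDs of 100 RPKM or more it was 0.836, 0.880 and 0.715 for the same pairs. The IDs of one library share its depth and scale and are not independent, so these values only describe the table.

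**Figure D4:**
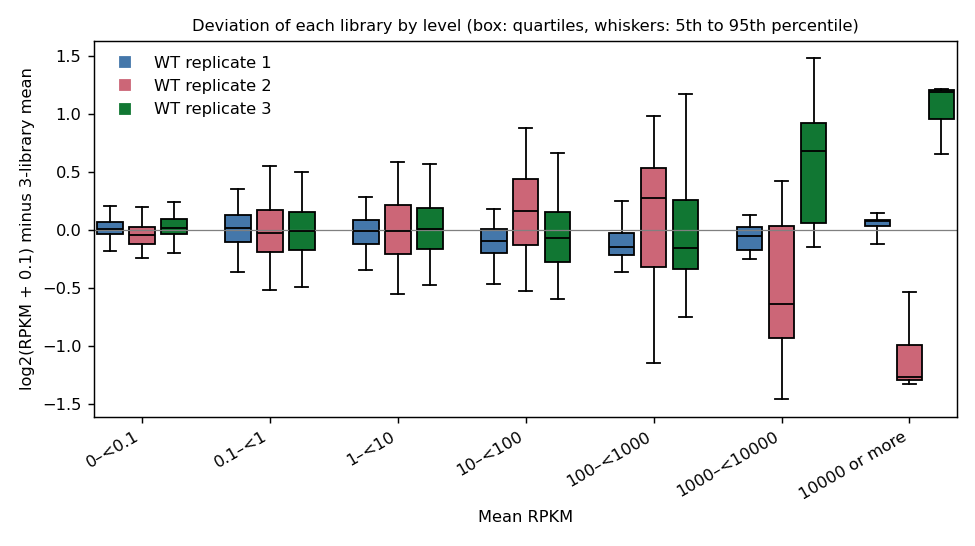
Deviation of each library from the mean of the 3 (vertical axis, log2 of RPKM + 0.1) by class of mean RPKM (horizontal axis), with boxes for the quartiles of the IDs and whiskers for the 5th and 95th percentiles. By median, replicate 2 lies above the other libraries at 10 to under 1000 RPKM and below them at 1000 RPKM or more, where replicate 3 lies above.

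Because the columns did not share one total, directions were also read after scaling all libraries to the same sum. That scaling multiplied replicates 1, 2 and 3 by 0.758, 1.43 and 0.386. It moved the median log2 ratio over all IDs to 0.83 for replicate 2 over replicate 1 and to -0.82 for replicate 3 over replicate 1, and made replicate 2 the highest library for 27165 of the 28580 IDs, or 95.05%, and replicate 3 the lowest for 95.7%. On the deposited scale these shares were 39.8% and 36.2%. A list whose members were nearly all highest in replicate 2 after this scaling thus matched the table as a whole. Scaling to the sum of IDs under 1000 RPKM moved the median of replicate 2 over replicate 1 to -0.22 and left replicate 2 highest for 25.4% of all IDs. Scaling by the median of ratios moved replicate 3, the library it shifted most, by -0.0044 on the log2 scale. Values and orders below are on the deposited scale unless said otherwise.

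Among the storage protein genes, the 12 IDs named as 19-kDa alpha zeins held 23.4% ± 4.43 of the summed RPKM (SD, n = 3). The unpaired IDs, which at 1000 RPKM or more held 55.2% ± 7.15, could not be placed in any zein group. The shares of the zein groups given here cover named IDs only. Their means ran from 9.27 RPKM for z1A1_8 to 117679 RPKM for z1A1_7, and z1A2_1 had 20143, 8359 and 40151 RPKM in replicates 1, 2 and 3. All 12 were highest in replicate 3 and lowest in replicate 2, against 36.6% and 40.8% of all IDs. In the class of 10000 RPKM or more, which includes the leading members, both shares were 100%. After scaling to an equal sum 8 were highest in replicate 3 and 9 lowest in replicate 2, against 1.21% and 1.25% of all IDs. At 10000 RPKM or more these shares were 66.7% and 81.0%. The named zeins are themselves counted in the classes of high level. The z1B subfamily was lower, with z1B_7 at 5344, 2694 and 9934 RPKM.

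The 11 IDs of 22-kDa alpha zeins held 4.61% ± 0.963 of the sum (SD, n = 3), led by z1C1_4 with 9972, 7969 and 17078 RPKM in replicates 1 to 3. All 11 had the same order of libraries as the 19-kDa group, highest in replicate 3, where 36.6% of all IDs were. At 1000 to under 10000 RPKM 76.5% of IDs were highest there, and at 10000 RPKM or more 100%. After scaling to an equal sum 8 of the 11 were highest in replicate 2 (72.7%, against 95.05% of all IDs). That share was 67.6% at 1000 to under 10000 RPKM and 14.3% at 10000 RPKM or more. The spread was unequal within the group. The leading copy z1C1_4 varied 2.14-fold, the narrowest range of the group, while z1C2 had 4047, 1485 and 11377 RPKM. The group's median was 2.31-fold, and the widest range was 80.9-fold, in the copy of lowest mean, 37.4 RPKM. The low copy z1C1_12 had 83.3, 25.6 and 290 RPKM, the largest SD of log2 level among named IDs of 100 RPKM or more.

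The 5 IDs of beta, gamma and delta zeins held 1.95% ± 0.272 of the sum (SD, n = 3). The gamma zein gene gz27 had 7750, 4493 and 11066 RPKM in replicates 1, 2 and 3, and gz16 had 6373, 2594 and 11986 RPKM. The 50-kDa gamma zein gene gz50 had 2964, 1010 and 6773 RPKM, a 6.71-fold range. The delta zein gene dzs18 had the narrowest range of the 5, at 3119, 3798 and 4300 RPKM, but the widest after scaling to an equal sum, 3.28-fold, and the beta zein gene bz15 lay between them with 5222, 3639 and 9491 RPKM. All 5 were highest in replicate 3, against 36.6% of all IDs and 76.5% of IDs of 1000 to under 10000 RPKM. After scaling to an equal sum 3 of the 5 were highest in replicate 2, where 95.05% of all IDs were. At 1000 to under 10000 RPKM that share was 67.6%. On the deposited scale, storage globulins behaved differently from each other. The legumin-like gene leg1 had 1382, 1471 and 1516 RPKM, while glb3 had 409, 212 and 618 RPKM, a wider range. After scaling to an equal sum this turned, with a 3.60-fold range for leg1 and 1.30-fold for glb3.

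The 22 IDs of starch synthesis and sucrose use had a median level of 36.7 RPKM, against 1.61 RPKM over all IDs, and 19 of them reached 1 RPKM. Levels of wx1, the granule-bound starch synthase gene, were 1493, 632 and 1862 RPKM in replicates 1, 2 and 3, lowest in replicate 2. On the deposited scale the other leading genes had narrower ranges. After scaling to an equal sum this turned, with a 1.57-fold range for wx1, 3.98-fold for sh1 and 3.66-fold for bt1. Sucrose synthase sh1 had 931, 1209 and 1127 RPKM, and the ADP-glucose transporter bt1 had 621, 683 and 693 RPKM. The subunits of ADP-glucose pyrophosphorylase ran side by side, with the small subunit bt2 at 459, 381 and 497 RPKM and the large subunit sh2 at 368, 334 and 470 RPKM. As a group, 12 were highest in replicate 3 (54.5%, against 36.6% of all IDs) and 9 in replicate 2 (40.9%, against 39.8%). After scaling to an equal sum 19 were highest in replicate 2 (86.4%, against 95.05% of all IDs).

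Central metabolism and protein synthesis genes had another order of libraries than the zeins. Of 17 IDs of glycolysis and fermentation, 13 were highest in replicate 2, and this count was 16 after scaling to an equal sum and 12 after scaling to the sum under 1000 RPKM. Over all IDs the shares highest in replicate 2 were 39.8%, 95.05% and 25.4% on these 3 scales, so the count of 16 lies at the level of the whole table. At 10 to under 100 RPKM the share was 57.6% on the deposited scale and 44.9% after scaling to the sum under 1000 RPKM. The enolase gene eno1 had 227, 1006 and 200 RPKM in replicates 1, 2 and 3, and the glyceraldehyde-3-phosphate dehydrogenase gene gpc3 had 317, 849 and 268 RPKM. The aldolase gene ald1 had 258, 626 and 213 RPKM. Replicate 2 thus stood apart for these 3, whereas alcohol dehydrogenase adh1 had 205, 212 and 238 RPKM, even on the deposited scale but 3.31-fold apart after scaling to an equal sum.

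Of 38 IDs of translation factors and ribosomal proteins, with a median level of 42.1 RPKM, 35 were highest in replicate 2 (92.1%). The share was 39.8% over all IDs and 57.6% over IDs of 10 to under 100 RPKM. After scaling to an equal sum the count was 38, where 95.05% of all IDs were. It was 31 (81.6%) after scaling to the sum under 1000 RPKM, against 25.4% of all IDs and 44.9% at 10 to under 100 RPKM. The elongation factor gene elfa2 had 595, 883 and 568 RPKM in replicates 1 to 3. Histone and cell cycle genes were low in level but showed the widest gap of these groups. Their 17 IDs summed to 138, 473 and 108 RPKM and 15 were highest in replicate 2 (88.2%, against 39.8% of all IDs). All 17 were after scaling to an equal sum, as most IDs were. After scaling to the sum under 1000 RPKM 14 were (82.4%, against 25.4% of all IDs). The histone H2A gene his2a1 had 44.6, 182 and 35.9 RPKM. Actin, tubulin and ubiquitin genes numbered 14, of which 11 were highest in replicate 2 (78.6%, against 57.6% of all IDs of 10 to under 100 RPKM). After scaling to an equal sum the count was 14, near the share of all IDs. After scaling to the sum under 1000 RPKM it was 8 (57.1%, against 44.9% of all IDs of 10 to under 100 RPKM). Their highest member MUB3 (GRMZM2G409726) was an exception, with 262, 159 and 420 RPKM. In replicate 2 the embryo and embryo-surrounding markers were also at their highest sums, 131 and 13.8 RPKM, and the zein sum was at its lowest; the part of either in these orders was not tested.

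Genes of the protein folding machinery lay far below the zein genes in RPKM. The 10 IDs of endoplasmic reticulum chaperones and folding enzymes had a median level of 7.21 RPKM. The disulfide isomerase gene pdi led them with 199, 388 and 152 RPKM in replicates 1, 2 and 3. The chaperone bip1 had 65.9, 66.8 and 82.4 RPKM, bip2 had 40.3, 44.9 and 49.97 RPKM, and the calreticulin gene crt2 had 26.6, 35.1 and 28.0 RPKM. Apart from pdi, these leading members differed less than 1.5-fold between the libraries on the deposited scale, whereas after scaling to an equal sum bip1 ranged 3.01-fold and all 10 IDs were highest in replicate 2 and lowest in replicate 3, as most IDs of the table were.

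Regulators of the endosperm were at moderate to low level, with a median of 5.74 RPKM over 9 IDs. The bZIP factor gene o2 was the highest of them, with 112, 86.1 and 163 RPKM in replicates 1 to 3. The prolamin-box factor pbf1 (GRMZM2G146283) had 20.0, 17.5 and 16.4 RPKM. Naked endosperm Nkd1, an aleurone regulator, had 18.9, 20.6 and 8.10 RPKM and was lowest in replicate 3, while Nkd2 had 6.19, 9.49 and 5.31 RPKM. No shared order of the libraries ran through the group on the deposited scale, where the counts of highest members were 4, 3 and 2. All 9 were highest in replicate 2 after scaling to an equal sum, as 95.05% of all IDs were. The list of protein body, opaque and floury genes had 6 IDs. Of these, 4 were highest in replicate 3 and 2 in replicate 2, against 36.6% and 39.8% of all IDs. After scaling to an equal sum 3 of the 6 were highest in replicate 2, again against 95.05% of all IDs. Its highest members z1A1_6 and z1C2 are alpha zein genes, while fl3, the floury3 gene of a PLATZ protein, had 457, 1083 and 411 RPKM and was highest in replicate 2.

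Enzymes of amino acid and carbon-nitrogen metabolism ranged from 0.139 to 736 RPKM over 16 IDs. Pyruvate phosphate dikinase PPDK2 had 602, 971 and 636 RPKM in replicates 1, 2 and 3, and Ppdk1 had 105, 181 and 82.4 RPKM. Acetohydroxyacid synthase AHAS108, an enzyme of branched-chain amino acid synthesis, had 99.0, 120 and 97.9 RPKM. The glutamine synthetase gene gln2 had 14.5, 13.9 and 22.04 RPKM. Among defence and inhibitor proteins, all 4 IDs were highest in replicate 3, against 36.6% of all IDs. They were led by hag, an inhibitor of trypsin and Hageman factor, with 741, 524 and 1278 RPKM. After scaling to an equal sum 3 of the 4 were highest in replicate 2, against 95.05% of all IDs.

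The basal transfer layer, the tissue that passes sugars from the mother plant into the endosperm, differed most between the libraries of all the lists, with a median ratio of highest to lowest library of 65.3, against 1.42 over all IDs. Its marker BETL1 had 127, 39.9 and 2.94 RPKM in replicates 1, 2 and 3, a 43.0-fold range. The other members named by level followed at lower values, with betl2 at 6.96, 13.1 and 0.12 RPKM, betl4 at 9.12, 8.81 and 0.35 RPKM and betl3 at 14.2, 3.58 and 0.27 RPKM. The cell wall invertase gene mn1 and the signalling peptide gene MEG1, singled out after their values were seen, were at 0.01 and 0.05 RPKM in replicate 3, against 13.4 and 6.22 RPKM in replicate 1. Of 8 IDs, 7 were lowest in replicate 3 on the deposited scale, against 36.2% of all IDs, and all 8 after scaling to an equal sum, where 95.7% of all IDs were. The exception was ebe1, also singled out after its values were seen, with 0.84, 0.88 and 0.99 RPKM.

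Other tissue markers were few and low. The embryo-surrounding gene ESR1 had 0.32, 9.57 and 0.33 RPKM and esr6 had 0.36, 4.24 and 0.24 RPKM in replicates 1, 2 and 3. The oleosin gene ole1, an oil body protein of the embryo and scutellum, had 28.2, 86.4 and 43.0 RPKM, and ole17 had 17.9, 26.8 and 34.1 RPKM. Replicate 1 was lowest for all 3 embryo markers, glb1 at 3.80, 17.6 and 14.5 RPKM included, against 23.0% of all IDs. After scaling to an equal sum replicate 1 was lowest for 1 of them, against 3.04% of all IDs. The 8 aleurone IDs summed to 54.5, 76.5 and 45.6 RPKM, with vpp1, a vacuolar proton pump, at 12.7, 30.7 and 13.9 RPKM. Transfer cell, embryo-surrounding and embryo markers therefore did not share one order of libraries.

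**Figure D5:**
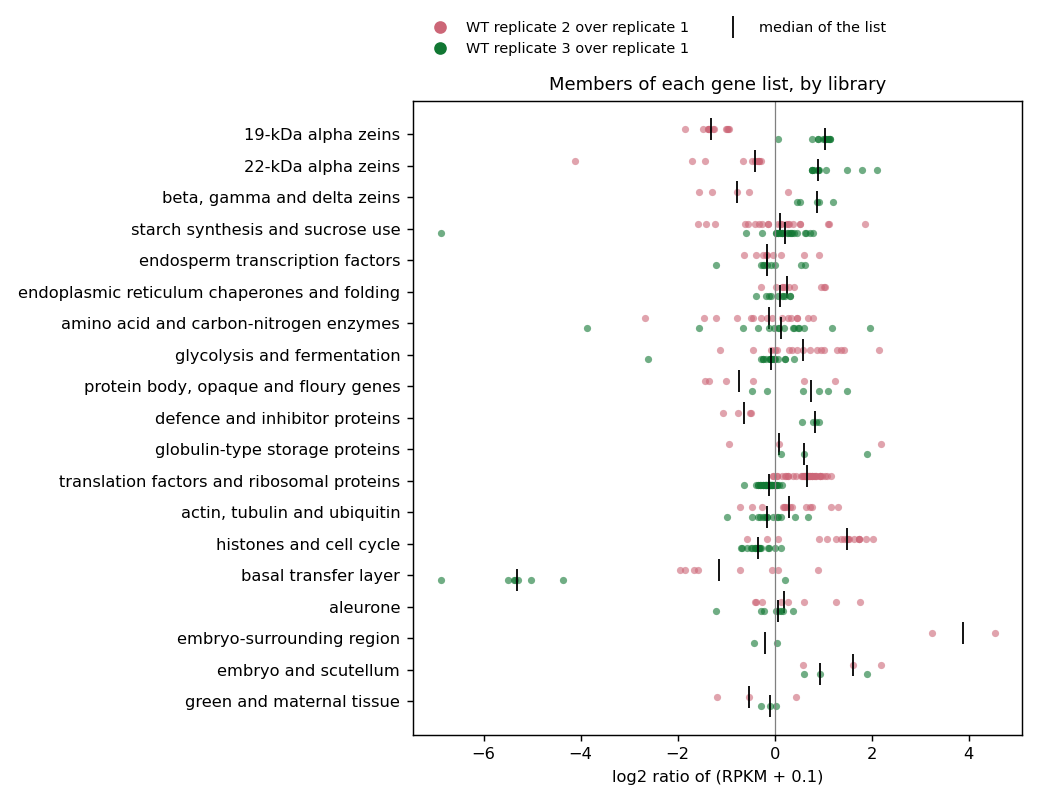
log2 ratio of RPKM + 0.1 in wild-type replicate 2 over replicate 1 (red) and replicate 3 over replicate 1 (green) for each member (point) of each gene list (vertical axis), on the deposited scale, with a tick for the median of the list. The 19-kDa alpha zeins lie at medians of -1.31 and 1.04, histones and cell cycle genes at 1.49 and -0.35, and the basal transfer layer at -1.15 and -5.32.

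On the deposited scale, some abundant genes held nearly one level in the 3 libraries, but after scaling to an equal sum NRP1 ranged 3.78-fold and leg1 3.60-fold. Among named IDs of 100 RPKM or more, the smallest SD of log2 level belonged to NRP1, with 161, 172 and 169 RPKM in replicates 1, 2 and 3. It was followed by leg1, bt1, the ribosomal protein gene rps27 with 107, 111 and 98.3 RPKM, and the starch branching enzyme gene ae1 with 103, 93.0 and 105 RPKM. The sorbitol dehydrogenase gene sdh1 had 655, 615 and 548 RPKM. At the other end stood alpha and gamma zeins, and outside them hsp18a with 77.5, 39.0 and 292 RPKM and eno1. Among unnamed IDs, GRMZM2G082799 and GRMZM2G066546, singled out after their values were seen, had 472, 155 and 7.83 RPKM and 372, 125 and 6.32 RPKM, a larger SD of log2 level than any other ID of 100 RPKM or more.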

How the data were processed

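Polyadenylated RNA of B73 endosperm at 15 DAP was measured in 3 libraries. The expression table held RPKM values per gene ID and library as deposited by the authors, and a second table held read counts per library by mapping class as deposited by the authors. Bedtools 2.17.0, TopHat2 2.0.9, Bowtie2 2.1.0, Trimmomatic, MACS2 2.1.0.20140616, edgeR 3.2.4 and, as genome build, B73 RefGen_v3 are listed per the submitters' processing notes, with no role or step for any of them. The labels and files do not state which read classes entered the RPKM, how its library scale was set or whether strand was used.

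RPKM values were used as deposited, with Python 3.11.15, numpy 2.4.6 and pandas 2.3.3. IDs were ranked by mean RPKM, shares were taken within each library, and spread was computed as the SD of log2(RPKM + 0.1). The fold between libraries of low IDs is understated on that scale. No test was run, because a single group was described. The spread computation was tested on simulated data. Gene names came from RefSeq's gene table for Zm-B73-REFERENCE-NAM-5.0. It served for names alone, paired 12658 of the 28580 IDs with a gene, met 2 or more for 407 of those, and named 1747. An unpaired ID is one the table did not match.

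The 19 gene lists were matched by symbol, and 9 matches that only share a symbol were removed. Named are the 25 highest IDs; the 25 highest named IDs outside the zein lists; up to 4 highest members of each list and the zeins of 1000 RPKM or more; and, among named IDs of 100 RPKM or more, the 10 with the largest and the 10 with the smallest SD. Members shown by name are drawn from these, and not all that the rule names are reported here. The members and lists were chosen with earlier results of these data known. Alternatives were other scalings, thresholds, pseudocounts, filters and leaving out each replicate. Sequences of promoters and proteins were not used here.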

Additional observations from a re-analysis of the deposited data

How the results depend on the processing

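The shares of the top 10, of the top 100 and of IDs of 1000 RPKM or more moved by less than 1 SD under every alternative run. A share within a library does not change when that library is scaled. The scalings could thus move only which IDs were ranked or passed the limit, and say little about these shares. The share of the top 100 IDs left without those of 1000 RPKM or more (21.2%) was 22.8% after scaling to an equal sum, 22.4% over IDs of 1 RPKM or more in every library, 16.8% with a limit of 500 RPKM and 27.9% with one of 2000 RPKM. Over paired IDs only, an alternative chosen after seeing the data, it was 29.5%, 4 IDs held 0.5 of the sum (7 with all IDs) and 8601 IDs reached 1 RPKM (18475 with all). Keeping 1 ID of each constant-ratio pair, also chosen after seeing the data, moved none of these shares by more than 1 SD and neither count by more than 1.5 times. The pooled SD at 1 to under 1000 RPKM (0.48) was 1.03 after scaling to an equal sum, 0.37 over IDs of 1 RPKM or more in every library and 0.35 with a pseudocount of 1. At 1000 RPKM or more it was 0.56 after scaling to an equal sum (0.94 as deposited). The wider spread of the highest IDs thus held on the deposited scale and turned under that scaling, with IDs placed anew by their scaled means. Leaving out 1 replicate gave 0.43 (without replicate 3) to 0.55 (without replicate 1) at 1 to under 1000 RPKM, and 0.63 (without replicate 2) to 1.32 (without replicate 1) at 1000 RPKM or more. The cause was not tested. Means of 46 of 235 listed genes moved by more than 1 SD under scaling to an equal sum, and of 1 under each other scaling. The equal sum was set at 1000000, below the mean deposited sum of 1534559 RPKM, so that scaling also changed the unit. The count of 46 therefore cannot be compared with the count of 1, or read as dependence on library scale alone. No paired analysis was possible because only 1 group was described and no test was run. The number of reads behind an RPKM value is unknown, so counting error could not be given.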
